A study of Mus musculus with 1203 samples.

Results

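The transcription factors that mark the tuft lineage, Pou2f3, Gfi1b, Spib, Hmx2, Hmx3, Runx1 and Zfhx3, were followed across single cells of the mouse colon. They were taken by gene symbol, and each of the 7 symbols matched 1 of the 46517 mouse genes in the table. Cells had been sorted one by one into plates and profiled by Smart-seq2, which copies polyadenylated RNA into full-length cDNA. The animals were females of 11 weeks, labelled either wt (wild type) or VillinCre;IPMKf/f, in which Cre recombinase under the Villin promoter acts on floxed Ipmk alleles in intestinal epithelial cells. All cells came from the colon, and none of the labels names an animal or a treatment.

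Tuft cells are rare chemosensory cells of the gut lining that sense luminal compounds and microbes and release mediators such as interleukin-25, leukotrienes and acetylcholine. Pou2f3, a POU domain factor that binds octamer sites, is known as the master regulator of the lineage, and mice without it lack tuft cells. Gfi1b is a zinc finger repressor of the blood lineages that also marks tuft cells, while its relative Gfi1 acts in secretory cells of the gut. Spib, an ETS factor, is known from B cells, plasmacytoid dendritic cells and the antigen-sampling M cells of the gut. Hmx2 and Hmx3 are homeobox factors known from inner ear development, Runx1 is a master regulator of blood stem cells, and Zfhx3 is a large zinc finger homeobox protein.

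After removal of wells with fewer than 1000 genes above 0, 856 cells remained. Of these, 766 came from the gate labelled tuft (EPCAM+ SIGLEC-F+ cells) and 90 from the gate labelled epithelial (39 wild type and 51 labelled VillinCre;IPMKf/f). Values are TPM, transcript abundances divided by transcript length and scaled to 1000000 in each well, so that levels of different genes can be compared. They keep no read depth, and the number of genes detected (above 0 TPM) is given where depth matters. Wild type cells filled plate sets 1, 3 and 6 and the others plate sets 2, 4, 5 and 7, so genotype and plate set cannot be told apart. Each genotype is 1 sample, no p-value was computed, and each SD describes the spread between plate sets, part of which may be technical. Ipmk, the targeted gene, was not lower in the tuft-gate cells labelled VillinCre;IPMKf/f. Its mean was 6.90 to 18.8 TPM over their 4 plate sets and 3.22 to 4.31 TPM over the 3 wild type ones, and 22.9% to 31.1% and 23.9% to 30.1% of cells had a value. Gene-level TPM cannot show which exons were read, so every direction between genotypes below is that of the labels.

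Cells were placed in classes by Trpm5, the cation channel of the taste-type signalling cascade, and Dclk1, a microtubule-associated kinase used as a tuft marker. Cells with Trpm5 of at least 50 TPM and Dclk1 of at least 100 TPM are called tuft-class cells. They made up 60.97% of the 766 tuft-gate cells: 60.3% of the wild type ones (exact 95% binomial interval 55.7% to 64.8%) and 62% of those labelled VillinCre;IPMKf/f (56.2% to 67.5%). Intervals here and below cover counting error only. A further 49 cells had Trpm5 of at least 50 TPM with less Dclk1, 93 had low Trpm5 (above 0 and below 50 TPM), and 20.5% of the gate (17.7% to 23.5%) had no Trpm5. The classes are ranges of 2 genes, not cell types, and 34 tuft-gate cells lay at 40 to 60 TPM of Trpm5. Tuft-class cells held the defining tuft markers, with Avil in 99.1% and Sh2d6 in 99.6% of cells. Other listed markers were read less often, among them Gnat3 in 51.2%, Alox5ap in 44.97%, Il25 in 25.1% and Gng13 in 7.49% of them. The cells without Trpm5 were mixed. They held markers of absorptive colonocytes, whose 10 listed genes summed to a median of 1123 TPM (wild type) and 5017 TPM, against 10.5 and 31.86 TPM in tuft-class cells. Goblet markers were also there, with Muc2, the main mucin, in 22.3% of these cells at a mean of 987 TPM, and Zg16 at 996 TPM. Of 8 goblet markers, 7 were called lower in wild type tuft-class cells and 1 in the other genotype. Cd74, of antigen-presenting cells, was read in 11.5% at a mean of 690.1 TPM and Lyz2, of myeloid cells, in 5.73% at 309.3 TPM.

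The genes lie on separate chromosomes except Hmx3 and Hmx2, which follow each other on the plus strand of chromosome 7, 3847 bases apart, and Spib on the minus strand of the same chromosome. In GENCODE coordinates on GRCm38, the deposited build's assembly, Pou2f3 spans chr9:43123939-43210369 (minus strand), Gfi1b chr2:28609450-28621982 (minus), Spib chr7:44525993-44532071 (minus), Hmx3 chr7:131542867-131544925 (plus), Hmx2 chr7:131548773-131558014 (plus), Runx1 chr16:92601466-92826149 (minus) and Zfhx3 chr8:107942644-108961630 (plus). All are annotated as protein-coding. Promoters from RefSeq (GRCm38.p6) were matched for 6 of the 7 genes, with 8 start sites in all. The 250 bases before the start are shown for those promoters in which a searched motif was found. Capitals mark a 7-letter part of the octamer bound by POU factors (ATGCAAA or TGCAAAT) or a TATA element (TATATAA), searched on both strands.
Spib (chr7:44532072-44532321, minus strand): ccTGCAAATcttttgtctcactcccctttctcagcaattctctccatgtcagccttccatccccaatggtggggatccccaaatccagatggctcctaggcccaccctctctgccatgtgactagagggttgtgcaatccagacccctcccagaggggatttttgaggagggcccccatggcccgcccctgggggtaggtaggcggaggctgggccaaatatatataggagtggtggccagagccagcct
Runx1 (chr16:92697330-92697579, minus strand): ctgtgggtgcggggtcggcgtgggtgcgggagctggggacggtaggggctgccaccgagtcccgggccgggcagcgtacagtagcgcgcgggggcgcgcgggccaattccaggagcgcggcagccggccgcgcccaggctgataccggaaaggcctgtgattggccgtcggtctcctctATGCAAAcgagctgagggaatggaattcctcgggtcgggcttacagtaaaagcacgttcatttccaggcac
Hmx2 (chr7:131548507-131548756, plus strand): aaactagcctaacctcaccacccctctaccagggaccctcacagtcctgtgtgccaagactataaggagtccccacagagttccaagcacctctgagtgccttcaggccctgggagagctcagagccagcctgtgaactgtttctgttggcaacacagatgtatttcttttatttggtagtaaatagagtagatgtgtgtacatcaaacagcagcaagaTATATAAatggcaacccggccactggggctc
Spib held TGCAAAT, ending at position -242 (counted from the start site, with -1 the base before it), and the window of the second Runx1 start held ATGCAAA, ending at position -65. These letters occur in 3.56% and 4.12% of the 32851 promoter windows of this length. Hmx2 held TATATAA from position -31 to -25 of its first start, which 3.04% of windows contain. Neither ACCACA, the core bound by RUNX factors (14.1% of windows), nor GAGGAAGT, an ETS site of the type bound by Spi factors (2.44%), was found on either strand in the 8 windows. The windows differed in composition, from 44.4% G and C in Gfi1b to 76.8% in Hmx3, whose window holds 31 CpG pairs. The first and second Hmx2 windows hold 1 and 21. The match of a few letters is a description and shows no binding.

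All 7 factors were higher in tuft-class cells than in tuft-gate cells without Trpm5, in both genotypes and in every plate set. The call required at least 1 TPM in a class, a 2-fold difference on log2(mean TPM + 1) and the same direction in each plate set with at least 5 cells of both classes. In wild type cells 7 of 7 factors met it, where 10.9% of all 10694 genes tested did (13.3% were lower), and in cells labelled VillinCre;IPMKf/f 7 of 7, where 10.6% of 10429 genes did (12.6% lower). The median log2 difference of the 7 was 3.24 and 3.70, beside -0.09 and -0.06 over all genes tested. In the 32 listed tuft effector genes, which carry out taste-type signalling, lipid mediator synthesis and the brush structure, 31 could be tested and 31 were higher in each genotype, with medians of 4.82 and 5.30. The factors and effector genes were listed as tuft genes with earlier results of these data known, and tuft markers set the classes. Their counts are therefore a description and no independent support. Differences on this scale are understated for genes at low levels, which touches Zfhx3 most. Mitochondrial transcripts moved with the class, at 2.84% of TPM in tuft-class cells and 9.35% without Trpm5 in wild type, and at 2.57% and 7.15% in the other genotype. Their part in the result was not tested.

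**Figure D1:**
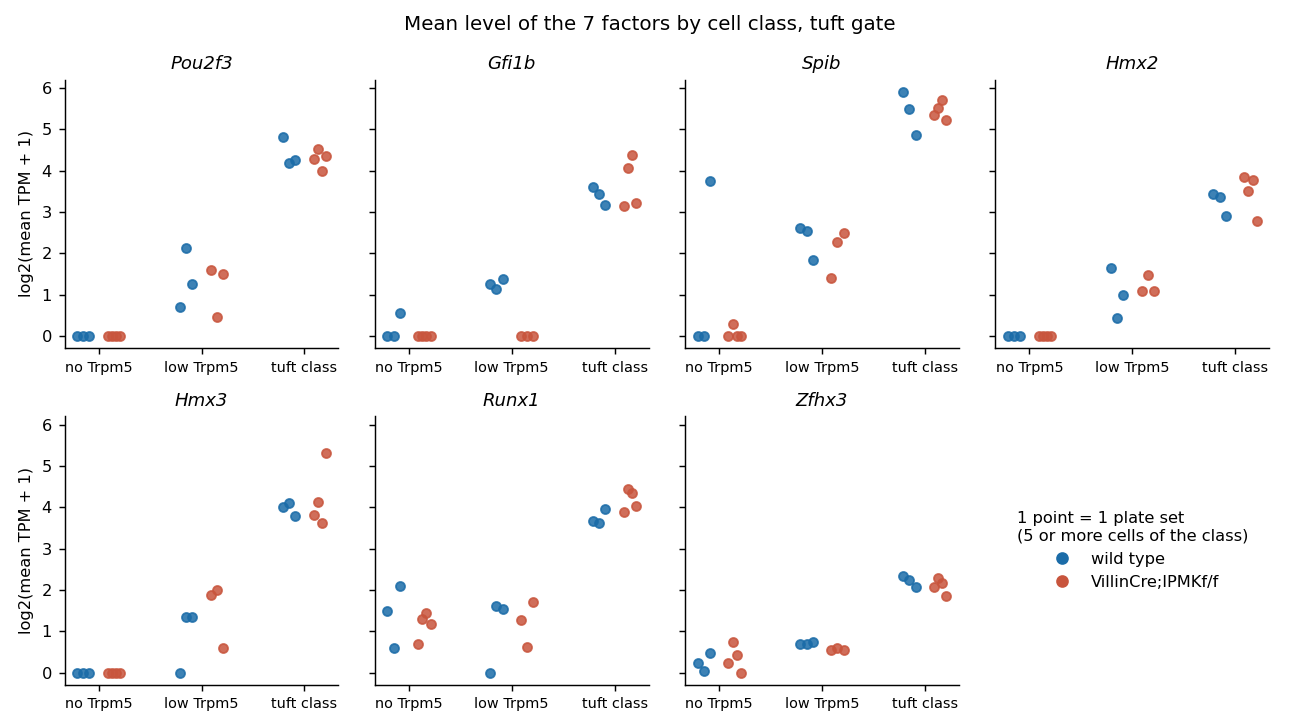
Mean TPM of each factor, as log2(mean TPM + 1), in tuft-gate cells without Trpm5, with low Trpm5 and of the tuft class, 1 point per plate set with at least 5 cells of the class (blue wild type, red VillinCre;IPMKf/f). Every factor is highest in the tuft class, and Spib has 1 wild type plate set far above 0 among cells without Trpm5.

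Pou2f3 was read in 81.8% of tuft-class cells (77.99% to 85.2%) and in none of the tuft-gate cells without Trpm5, which allows a share of up to 1.91% taken as 3 cells of the class, or 2.32% as the exact upper limit. Its mean level in tuft-class cells of plate sets 1, 3 and 6 (wild type) was 27.1, 17.1 and 18.2 TPM. In plate sets 2, 4, 5 and 7 (labelled VillinCre;IPMKf/f) it was 18.5, 21.9, 15.04 and 19.7 TPM. The genotypes overlap, with wild type plate set 1 the highest. Without Trpm5 it was listed at 0 in all 7 plate sets, so no fold is given.

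Spib was the most abundant of the 7, with 40.9 TPM on average over all tuft-class cells, and was read in 94.9% of them (92.4% to 96.7%). Its means, with plate sets in the same order, were 59.1, 44.3 and 28.3 TPM for wild type. For the other genotype they were 39.8, 44.5, 51.1 and 36.7 TPM. The spread inside wild type was thus wider than the whole range of the other genotype. It was also read in 4 tuft-gate cells without Trpm5 (2.55%, 0.698% to 6.39%), and 1 of these held 656.2 TPM. The 4 were 3 cells of wild type plate set 6, where the class mean was 12.5 TPM, and 1 of plate set 4, and the class was listed at 0 in the other plate sets. The wild type difference between classes therefore had a mean log2 value of 4.18 with an SD of 2.66 over 3 plate sets, against 5.38 with an SD of 0.22 over 4 plate sets in cells labelled VillinCre;IPMKf/f.

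Gfi1b was read in fewer tuft-class cells (43.3%, 38.7% to 47.9%) and in 2 tuft-gate cells without Trpm5 (1.27%, 0.155% to 4.53%). Tuft-class means were 11.2, 9.76 and 8.07 TPM for wild type. They were 7.82, 15.7, 19.8 and 8.34 TPM for the other genotype. Single cells weigh on both higher values: 1 cell at 490.2 TPM in plate set 5, without which the mean was 11.1 TPM, and 1 at 254.04 TPM in plate set 4, without which it was 12.2 TPM. Without the highest cell of every plate set, plate sets 4 and 5 still had the highest means, with the others at 5.89 to 10.4 TPM. Where it was read at all, the median Gfi1b level was 17.8 TPM, close to that of Pou2f3 in the cells that had it (18.4 TPM). The lower mean of Gfi1b goes with fewer cells that have a value. These medians leave out cells at 0, so they cannot show the level where a factor was not read.

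The neighbours Hmx2 and Hmx3 were both listed at 0 in every tuft-gate cell without Trpm5. In tuft-class cells Hmx3 was read in 56.7% (52.1% to 61.3%) and Hmx2 in 43.9% (39.3% to 48.5%). Both shares are of the same cells, pooled over plate sets, so their intervals do not serve as a test. Hmx3 means were 15.1, 16.4 and 12.98 TPM for wild type. They were 13.1, 16.6, 11.3 and 38.99 TPM for the other genotype. Plate set 7 stands apart with 9 tuft-class cells, 1 of them at 217.1 TPM, and without that cell its mean was 16.7 TPM. Hmx2 means were 9.92, 9.36 and 6.51 TPM for wild type against 13.3, 10.3, 12.8 and 5.86 TPM, and the genotypes overlapped again.

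Runx1 and Zfhx3 were high in tuft-class cells but not confined to them. Runx1 was read in 80.7% of tuft-class cells (76.9% to 84.2%) and in 32 cells without Trpm5 (20.4%, 14.4% to 27.5%), at a mean of 15.2 and 2.02 TPM. Zfhx3 was read in 92.5% (89.7% to 94.7%) and also in 32 cells without Trpm5 (20.4%), at 3.50 and 0.33 TPM. Zfhx3 thus had the lowest mean level of the 7 and the widest presence after Spib. Its log2 difference between classes, 1.96 (SD 0.32, 3 plate sets) in wild type and 1.75 (SD 0.15, 4 plate sets), was the smallest of the 7, and that of Runx1 was 2.36 (SD 0.62) and 3.02 (SD 0.17).

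Outside the tuft class, Runx1 and Zfhx3 were found in more than 1 kind of cell. Among the tuft-gate cells without Trpm5, 10 had Ptprc, the leukocyte surface protein CD45, and 5 of these had Runx1 (50%, 18.7% to 81.3%) at a mean of 14.5 TPM. Of those without Ptprc, 27 had Runx1 (18.4%, 12.5% to 25.6%) at 1.17 TPM, and these intervals overlap. Krt20, a keratin of mature surface colonocytes, divided them too: 11 of 94 cells with Krt20 had Runx1 (11.7%, 5.99% to 19.97%) and 21 of 63 without it (33.3%, 21.95% to 46.3%). For Zfhx3 the shares were 9.57% and 36.5%. Median genes detected were 2138 with Krt20 and 4110 without, so depth moves with this split, and its part in the difference was not tested. In the epithelial gate, 12 of 68 cells without Trpm5 had Runx1 (17.6%), at a mean of 1.44 TPM.

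**Figure D2:**
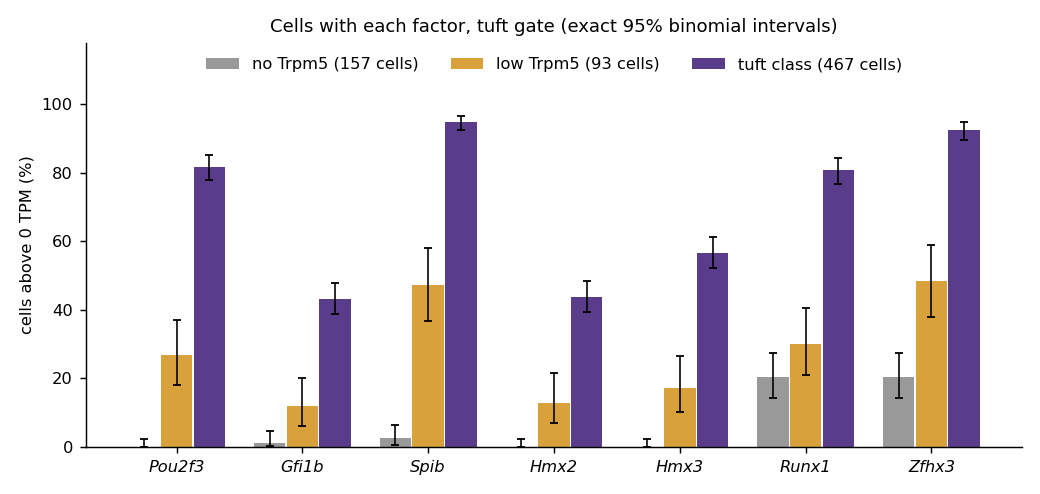
Share of tuft-gate cells above 0 TPM for each factor in cells without Trpm5, with low Trpm5 and of the tuft class, both genotypes together, with exact 95% binomial intervals. Pou2f3, Hmx2 and Hmx3 are at 0 without Trpm5, while Runx1 and Zfhx3 stand at 20.4%.

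The 93 cells with low Trpm5 together held all 7 factors at a low level. Spib was read in 47.3% of them (36.9% to 57.9%), Zfhx3 in 48.4%, Runx1 in 30.1%, Pou2f3 in 26.9%, Hmx3 in 17.2%, Hmx2 in 12.9% and Gfi1b in 11.8%. All cells with Gfi1b were wild type (11 of 63), and it was listed at 0 in the 30 labelled VillinCre;IPMKf/f, where the exact upper limit is 11.6%. Their mean levels were 0.0812 to 0.166 times those of tuft-class cells, with a median ratio of 0.109. Trpm5 and Dclk1, which set the class, had ratios of 0.102 to 0.109, which follow in part from the limits chosen. The 31 tuft effector genes with at least 1 TPM in tuft-class cells, which the class limits do not use, had a median of 0.107. The factors were thus lower in about the same proportion as these effector genes. Of 28 listed factors of other gut lineages, the 15 with at least 1 TPM in tuft-class cells had a median ratio of 0.545. That minimum leaves out factors low in tuft-class cells, some of them higher with low Trpm5. The contrast with other lineages is therefore a description from which no conclusion is drawn. Compared with low-Trpm5 cells, tuft-class cells had 7 of 7 factors called higher in each genotype, where 29.1% (wild type) and 26.4% of all genes tested were. The whole table was shifted in this comparison, with medians of 0.65 and 0.58 over all genes on the log2 scale against 2.71 and 3.04 for the 7. Low-Trpm5 cells also carried more colonocyte transcript, with marker sums of 404.6 and 417.5 TPM in median, and the part of these transcripts in the result was not tested.

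The 49 cells with Trpm5 of at least 50 TPM but Dclk1 under 100 TPM lay between. Spib was read in 71.4%, Pou2f3 in 53.1%, Zfhx3 in 69.4%, Runx1 in 38.8%, Hmx3 in 32.7%, Gfi1b in 26.5% and Hmx2 in 20.4% of them. They had fewer genes detected, 1948 in median against 2669 in tuft-class cells. With both genotypes together, Runx1 stood lowest against its tuft-class level, at 2.62 TPM against 15.2 TPM. Zfhx3 then stood highest, at 1.73 TPM against 3.50 TPM. In the 31 wild type cells alone Zfhx3 did not stand highest, at 0.81 TPM against 3.50 TPM. Runx1 was at 3.06 TPM against 13.2 TPM there.

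Within the tuft class, the factors were higher in cells with more Trpm5. They were divided by Trpm5 into 3 groups of equal size, from 52.5 to 164.5 TPM in the lowest and from 275.3 to 1279 TPM in the highest. Spib went from a mean of 16.7 TPM in the lowest group through 40.1 to 66.1 TPM in the highest, the largest change in TPM of the 7. Pou2f3 went from 11.4 through 18.6 to 28.1 TPM, Runx1 from 8.63 through 15.1 to 21.9 TPM, and Zfhx3 from 2.61 through 3.39 to 4.50 TPM. The share of cells with Pou2f3 changed less, from 78.8% to 85.8%, and that of Hmx3 stood at 51.9%, 61.5% and 56.8%. Median genes detected were 2312, 2677 and 2894 in the 3 groups and moved with them. Cells share their plate and their total of 1000000 TPM, so this is a description of cells and carries no test. The share of all genes that rise over these groups is not given, so the rise is not shown to be particular to the factors.

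**Figure D3:**
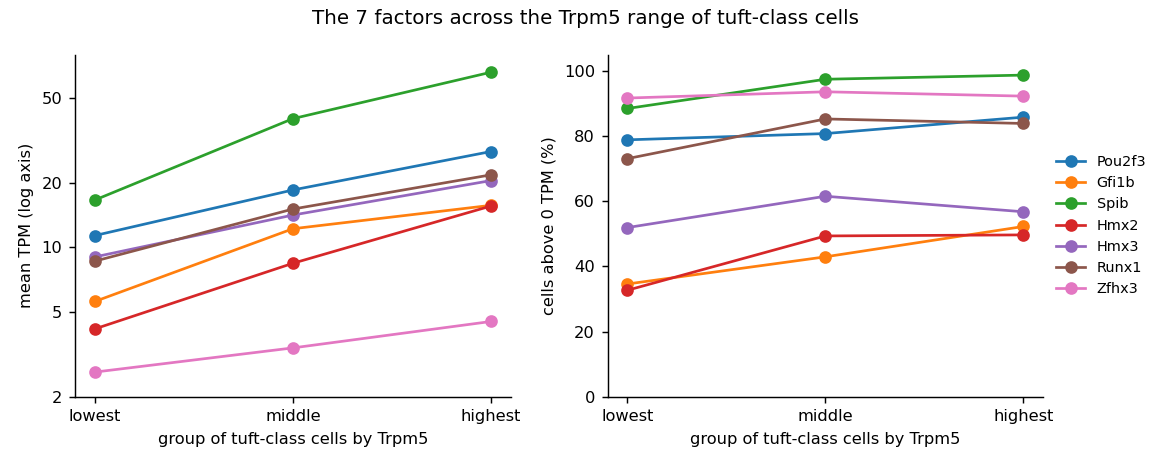
Mean TPM on a log axis (left) and share of cells above 0 TPM (right) of the 7 factors in tuft-class cells with the lowest, middle and highest Trpm5, 3 groups of equal size. All 7 means are higher in each next group, whereas the shares of Zfhx3, Hmx3 and Runx1 are not highest in the group with the most Trpm5. No count over all genes stands beside this.

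A tuft-class cell held 4.94 of the 7 factors on average, and 63.8% (59.3% to 68.2%) held 5 or more. All 7 were read in 65 cells and none in 1 cell. In cells with low Trpm5 the mean was 1.95 and 8 of 93 held 5 or more (8.60%, 3.79% to 16.2%). In cells without Trpm5 the mean was 0.45, and none held 5 or more, with a maximum of 3. The number depends on depth: tuft-class cells with 1000 to 2000 genes detected held 3.83 factors on average and those with 4000 genes or more held 5.89, while cells without Trpm5 held 0.16 and 0.71 at the same depths. Over this range the share of tuft-class cells with Gfi1b went from 31.2% to 63.5%, and that with Spib from 84% to 98.6%.

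**Figure D4:**
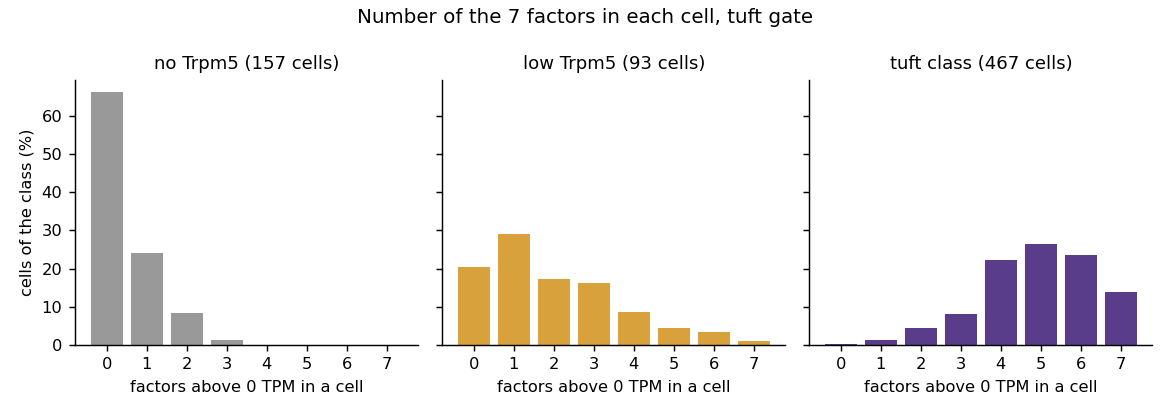
Percent of tuft-gate cells by the number of the 7 factors above 0 TPM, in cells without Trpm5, with low Trpm5 and of the tuft class. Tuft-class cells have most of their weight at 4 to 6 factors, cells without Trpm5 at 0 and 1.

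Pairs of factors were read together slightly more often than the product of their shares. Pou2f3 and Spib were both read in 79.2% of tuft-class cells, where the product of the shares is 77.6%, and their levels had the closest relation of the 21 pairs (Pearson r of 0.37 on log2(TPM + 1)). Spib with Runx1 had an r of 0.35 and Spib with Hmx2 one of 0.29. The adjacent genes Hmx2 and Hmx3 were both read in 28.1% (product 24.9%) with an r of 0.16, near that of Gfi1b and Hmx2 on different chromosomes (0.15). Of tuft-class cells without Spib 8.33% had Hmx2, against 45.8% of those with Spib, with 1461 and 2702 genes detected in median. For each of the 7 factors, tuft-class cells that had it had more genes detected in median than those without it, and the part of depth in these relations was not tested.

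Across all 766 tuft-gate cells, genes known from tuft cells were among the 5 of 7906 most like each factor by Pearson r on log2(TPM + 1). Plcg2, a phospholipase, was among them for Pou2f3 (r of 0.69), Spib (0.84), Runx1 (0.59) and Zfhx3 (0.64). Sh2d7, an adaptor protein, was among them for Gfi1b (0.43) and Hmx3 (0.48), and Krt23, a keratin, for Hmx2 (0.48). Fyb, another adaptor protein, was among them for Zfhx3 (0.66). These relations were weaker where only tuft-class cells entered. There the r with Plcg2 was 0.35 for Pou2f3, 0.61 for Spib and 0.32 for Runx1, and that of Zfhx3 with Fyb was 0.21. Trpm5 and Dclk1, which define the class, stood among the 5 genes most like Pou2f3 (Dclk1), Spib (Trpm5) and Zfhx3 (both).

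Among the 10 listed relatives of the 7 factors, few were present. Zfhx2, related to Zfhx3, was called higher in tuft-class cells than in cells without Trpm5 in both genotypes, at 4.13 against 0.95 TPM over all cells. Pou2f1, the widely expressed octamer factor, was called higher in wild type (8.17 against 3.23 TPM as means of plate sets) and not in the other genotype (2.90 against 1.60 TPM). It was also the 1 relative called between genotypes, lower in tuft-class cells labelled VillinCre;IPMKf/f, by -1.43 on the log2 scale (SD 0.95). Spi1 and Runx3, relatives known from blood, had higher means in cells without Trpm5. Spi1 averaged 0.08 TPM in tuft-class cells and 10.8 TPM in cells without Trpm5, in 5.10% of which it was read, and Runx3 0.03 and 1.84 TPM. Spi1 was called lower in neither genotype, and Runx3 in wild type only. Gfi1 and Hmx1 were listed at 0 in every tuft-class cell.

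Of 13 listed partners and cofactors, 1 followed the 7 factors closely. 1810046K07Rik, now known as Pou2af2, the coactivator of Pou2f3, was read in 56.1% of tuft-class cells and in none without Trpm5, at 20.01 TPM in wild type and 17.7 TPM in the others as means of plate sets. It was called higher in both genotypes. Gm684, now known as Pou2af3, another coactivator of Pou2f3, averaged 0.95 TPM, was read in 6.85% of tuft-class cells and was called higher in wild type, while it lay under the tested level in the other genotype. The older coactivator Pou2af1, known from B cells, averaged 0.05 TPM. Cbfb, the shared partner subunit of RUNX proteins, was at 0.81 TPM in tuft-class cells and 0.87 TPM in cells without Trpm5, under the tested level in wild type and not called in the other genotype. Of the corepressor subunits that partner GFI1 proteins, Kdm1a, Rcor1 and Hdac1 were not called in either genotype, while in wild type Rcor3 was called higher (3.68 against 0.87 TPM) and Hdac2 lower (0.85 against 4.15 TPM). Of the corepressors that bind RUNX proteins, Cbfa2t3 was called lower in wild type (0.13 against 3.88 TPM) and Cbfa2t2 lower in the other genotype (1.27 against 11.8 TPM). In all, 3 of 9 tested were higher and 2 lower in wild type, and 1 of 9 higher and 1 lower in the other genotype.

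Calls among factors of other gut lineages went both ways, and their shares did not fall clearly below those over all genes. Of the 28 listed, 2 of 19 tested were higher and 4 lower in wild type tuft-class cells, and 2 of 18 higher and 3 lower in the other genotype, beside 10.9% higher and 13.3% lower over all genes in wild type and 10.6% and 12.6% in the other genotype. Sox9, known from stem and Paneth cells and also from tuft cells, and Cdx1, an intestinal identity factor, were the 2 higher in both, with Sox9 at 28.5 against 8.84 TPM in wild type and 26.9 against 2.35 TPM in the others. Atoh1, which specifies secretory cells, was listed at 0 in wild type tuft-class cells and averaged 5.12 TPM without Trpm5. Hes1, a Notch target, was lower in wild type (0.44 against 10.5 TPM) and not called in the other genotype (0.38 against 1.74 TPM). No factor of this list was lower in both genotypes.

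Both gates had been sorted onto the same first plate in all 7 plate sets, and wells were compared inside these plates. In plate sets labelled VillinCre;IPMKf/f, 7 of 7 factors were called higher in the tuft gate (at least 2-fold in the mean over plates, and higher on every first plate), where 6.39% of 10199 genes tested were, and Pou2f3, Gfi1b, Hmx2 and Hmx3 were listed at 0 in all 51 epithelial-gate cells. Pou2f3 stood at 13.4, 15.6, 10.7 and 8.47 TPM in the tuft gate of plate sets 2, 4, 5 and 7. In wild type 0 of 7 factors met the call, where 4.21% of 10529 genes did. Pou2f3 was at 14.8, 12.04 and 8.54 TPM in the tuft gate and at 4.02, 24.8 and 11.7 TPM in the epithelial gate (plate sets 1, 3 and 6), so 2 of 3 plates had it higher outside the tuft gate. In plate set 3, 1 cell of the 13 held 161.5 TPM, and without it the epithelial-gate mean was 13.4 TPM. The wild type epithelial gate held tuft-class cells, 18 of 39 (46.2%, 30.1% to 62.8%), against 1 of 51 (1.96%, 0.0496% to 10.4%) in the other genotype. In those 18 cells Pou2f3 averaged 20.1 TPM, Spib 42.1 TPM and Hmx3 20.6 TPM, near the tuft-gate levels. When the epithelial gate was limited to wells without Trpm5, an alternative added after these values were seen, 5 of 7 factors were called in wild type, all but Pou2f3 and Zfhx3. The same cell, which has no Trpm5, carried most of both means in these 19 wells, 9.01 TPM for Pou2f3 and 1.69 TPM for Zfhx3. Without it they were 0.54 and 0.08 TPM, and 7 of 7 factors were called. That cell was picked by its Pou2f3 level, and neither count has a share over all genes beside it. Both are descriptions from which no conclusion is drawn.

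No factor was called different between genotypes. The call required a 1.5-fold difference with plate-set values that do not overlap, plate sets weighted equally. In the whole tuft gate 0 of 7 met it (4.03% of 9862 genes tested did, in either direction) and in tuft-class cells 0 of 7 (4.53% of 9562 genes). Nor did the plate sets of any factor lie apart at any fold, as those of 6.05% of genes did in the tuft gate and 6.03% in tuft-class cells. The log2 differences of Pou2f3, Spib, Zfhx3, Hmx2, Hmx3 and Gfi1b in tuft-class cells were -0.13, 0.02, -0.12, 0.23, 0.24 and 0.30, all smaller than their SD between plate sets (0.17 to 0.60). With plate set 7 left out, that of Hmx3 turned to -0.12.

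Runx1 had the largest difference between genotypes. Its tuft-class means were 11.8, 11.4 and 14.5 TPM in wild type. They were 13.7, 20.9, 19.5 and 15.3 TPM in the other genotype. The lowest of these, 13.7 TPM, lay under the highest wild type value, so the genotypes overlap. The log2 difference was 0.42 with an SD of 0.24 between plate sets. Single cells weigh on it: 1 cell at 325.7 TPM in plate set 4, without which that mean was 16.4 TPM, and 1 at 347.8 TPM in wild type plate set 6, without which it was 12.4 TPM. With only these cells left out, the plate sets of the genotypes did not overlap. Without the highest cell of every plate set they did. Wild type means were then 11.2, 10.8 and 12.39 TPM, and those of the other genotype 12.43, 16.4, 17.7 and 12.08 TPM. The share of cells with Runx1 was 79.7% (SD 6.66, 4 plate sets) and 79.02% (SD 5.47, 3 plate sets). The number of factors per tuft-class cell was likewise 4.90 (SD 0.32, 4 plate sets) and 4.93 (SD 0.03, 3 plate sets). These values set no limit on a change in the animals, since each genotype is 1 sample.

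**Figure D5:**
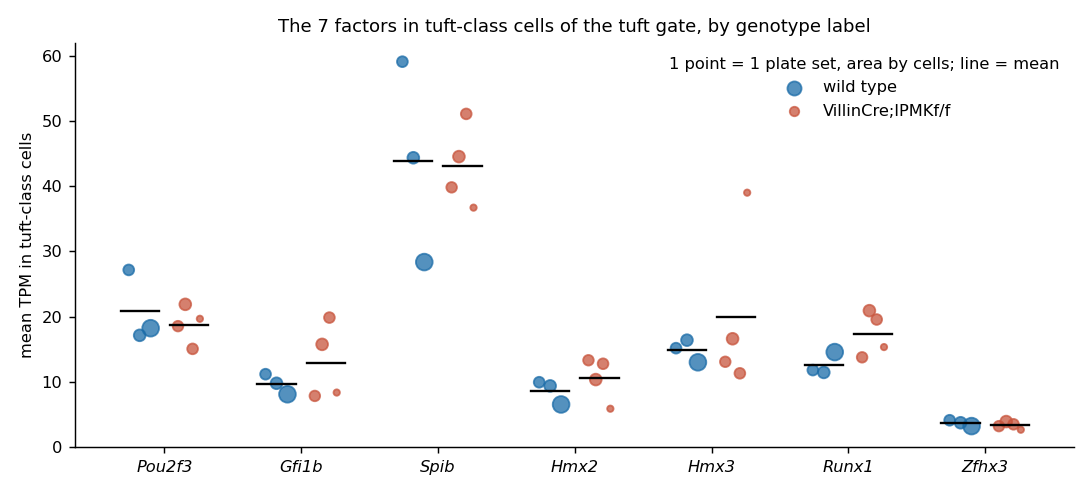
Mean TPM of each factor in tuft-class cells of the tuft gate, 1 point per plate set with area by its number of cells (blue wild type, 3 plate sets; red VillinCre;IPMKf/f, 4 plate sets) and a line at the mean. The plate sets of the genotypes overlap for all 7 factors, and the high Hmx3 point is plate set 7 with 9 cells.

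Of the kept cells with no Trpm5 in either gate, 6 held Pou2f3, Gfi1b or Spib, and their other genes were looked at one by one. A wild type cell of the epithelial gate (plate set 3) had 161.5 TPM of Pou2f3, above the highest tuft-class value of 111.02 TPM, with Spib at 118.8, Avil at 707.3 and Sh2d6 at 245.8 TPM but Dclk1 at 4.64 TPM and no Gfi1b, Hmx2 or Hmx3. A second epithelial-gate cell had 9.65 TPM of Pou2f3 and neither Avil nor Sh2d6. Both cells with Gfi1b, in the tuft gate of wild type plate set 6, had Spib at 52.8 and 656.2 TPM together with Gp2 at 335.05 and 69.2 TPM, a surface receptor known from M cells, and with Epcam at 336.1 and 845 TPM. The other pair had about 6 TPM of Spib (5.92 and 6.04 TPM) beside Cd74 at 13526 and 12939 TPM, Lyz2 at 21374 and 7647 TPM, and Ptprc, genes of antigen-presenting myeloid cells. These cells were picked by their values, so they are described and not compared.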

How the data were processed

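The 7 genes and the gene lists were chosen with earlier results of these data known. TPM values had been deposited by the authors for 1203 wells of 16 plates; per the submitters' processing notes they used Bowtie2 2.4.2, RSEM 1.3.3 and build mm10. The annotation release, strand handling and read depth were not stated there. Columns of 1 near-empty plate, 38 in all, were not used. In the tuft gate 466 wild type cells (85, 109 and 272 in plate sets 1, 3 and 6) and 300 labelled VillinCre;IPMKf/f (75, 106, 96 and 23 in plate sets 2, 4, 5 and 7) were kept. The tuft class held 467 of them (281 and 186; 56, 69, 156, 53, 69, 55 and 9 in plate sets 1, 3, 6, 2, 4, 5 and 7) and the class without Trpm5 157 (91 and 66). TPM shares a fixed total, of which 18S ribosomal RNA took 78.8% in wild type tuft-class cells and 66.6% in those without Trpm5, and this can move other genes. No doublet caller was run, and no identical columns were found (0). Means of TPM per plate set were compared as log2(mean TPM + 1), with the calls described beside the results, in Python 3.11.15. The calls were checked only on simulated cells with changes larger than the folds required and no differences between plate sets. That check does not show how they perform with the spread between plate sets seen here. The named genes are the 7 factors, the listed relatives, partners, lineage factors and effectors, and for each factor the 5 genes with the highest Pearson r among those in at least 10% of tuft-gate cells. Some of the genes this rule selects are not reported here. The 6 cells, the splits by Trpm5, Krt20 and Ptprc, and the means without single cells were chosen after their values were seen.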

Additional observations from a re-analysis of the deposited data

Results flagged for a closer look

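In 28 groups of the 4 plate sets labelled VillinCre;IPMKf/f (the mean level and the share of cells of each factor, in the tuft gate and in tuft-class cells), 2 had a plate set far from the other three by Dixon's ratio; chance alone marks about 1 group in 20. Both are the share of cells with Spib in plate set 7. In its tuft gate 9 of 23 cells had Spib (39.1%), the lowest of the 4 plate sets, and the gap to the next was 0.836 of the whole range. In its tuft-class cells 7 of 9 had Spib (77.8%), against 94.5% to 96.2% in plate sets 2, 4 and 5, a gap of 0.909 of the range. Plate set 7 had 23 kept tuft-gate cells and the fewest genes detected, 1756 in median, and the part of depth was not tested.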

How the results depend on the processing

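No paired analysis was possible because no plate set holds both genotypes and replicate numbers only count the wells within a group. Of the values of single factors under the alternatives, 12 lost their call and 15 gained one; the others kept theirs, and no called direction turned. With a pseudocount of 10 TPM, 3 of 7 factors were called between classes in wild type and 3 of 7 between gates in cells labelled VillinCre;IPMKf/f, in place of 7, since that pseudocount compresses low levels. In wild type the count between gates, 0, became 1 after rescaling without 18S and mitochondrial RNA, 5 against epithelial-gate wells with no Trpm5, 7 against those wells less the one with the most Pou2f3 (both added after the data were seen), and 0 to 2 with each plate set left out (2 without plate set 6). Between genotypes the count was 0 under every alternative run. The share of tuft-class cells with 5 or more factors, 63.3% in wild type and 64.5% in the others, was 73.8% and 79.03% in cells with at least 2000 genes, 70.2% and 75.3% in those with 2000 to 4000 genes, 38.1% and 38.7% when detection meant 5 TPM or more, and 69.1% in wild type with limits of 100 TPM for Trpm5 and 200 TPM for Dclk1. The cause of these shifts was not tested. TPM gives no depth, so a factor listed at 0 may be present below what these cells could show.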
